A study of Saccharomyces cerevisiae with 18 samples.

Results

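The yeast strain LP104-17 was set against the strain LP085-Vc at 24 h of flask culture, across all genes. The comparison used the 6 RNA-seq libraries labelled with those strains and that time, 3 for each strain, of the 18 libraries of the series. The series profiles Saccharomyces cerevisiae strains engineered to make diosgenin, a plant steroid that yeast builds from its own sterol precursors. Its other libraries hold the same strains at 6 h and a further strain, LP118, at 6 h and 24 h. All strains share BY4742, a laboratory strain of the alpha mating type, and the sources used here list neither the introduced genes nor the deleted ones. LP104-17 and LP085-Vc cells grew in 15 mL of synthetic dextrose medium with 2% w/v glucose at 30 °C and 250 rpm, from an OD600 of 0.1, and the strain label is the stated difference between them. Whether the 3 libraries of a strain are separate cultures is not stated, so the p-values speak for the spread among the sequenced samples alone, and that spread may be technical.

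The libraries held 6149449, 7042579 and 6714836 counts in LP104-17 and 6963296, 7420551 and 6978505 counts in LP085-Vc, and 6259 to 6294 genes had at least 1 count. Replicates stood close together, with a Pearson correlation of log2 CPM of 0.986 to 0.992 within a strain and 0.928 to 0.940 between the strains. Expression is given as counts per 1000000 counts (CPM), scaled by the trimmed mean of M values (TMM). A difference is given as a log2 fold change of LP104-17 over LP085-Vc with its standard error (SE). A gene was called at an adjusted p below 0.05 in edgeR's quasi-likelihood test. All these values are relative to the other transcripts of a library, so fewer cells of a kind and less RNA per cell cannot be told apart, nor can a change in the RNA content of all cells.

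Yeast that has used up its glucose burns the ethanol and acetate it released earlier. It then makes sugar by gluconeogenesis, stores trehalose and glycogen, and produces few new ribosomes. Cells that still grow put much of their transcription into ribosomal RNA, ribosomal proteins and the nucleolar factors that assemble them. Ribosome biogenesis genes share the promoter elements PAC and RRPE, and many genes of the general stress response carry the stress response element STRE, which the activators Msn2 and Msn4 bind. Ergosterol, the main sterol of yeast, comes from acetyl-CoA through the mevalonate pathway, squalene and lanosterol.

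At 24 h the transcripts for building ribosomes and translating proteins were higher in LP104-17. Transcripts for gluconeogenesis, storage carbohydrates, stationary phase and autophagy were lower. Of 6131 genes tested, 3222 (52.6%) were called, 1541 of them higher in LP104-17 (25.1%) and 1681 lower (27.4%). The large differences lay mostly on the higher side. Among called genes, 601 were at least 2-fold higher and 167 at least 2-fold lower, and 162 were at least 4-fold higher against 10 at least 4-fold lower. At 8-fold or more there were 22 higher and 2 lower genes. Lack of overlap between the strains' libraries was common. Of the 6131 genes, called or not, 1769 were higher and 2043 lower in LP104-17 without overlap. The median log2 fold change of all tested genes was −0.05. With libraries scaled by total counts alone, that median moved up by 0.146 and the called genes split into 1942 higher and 1073 lower. Small differences are therefore read here against that shift. The 65 gene lists used here hold 1048 tested genes.

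**Figure D1:**
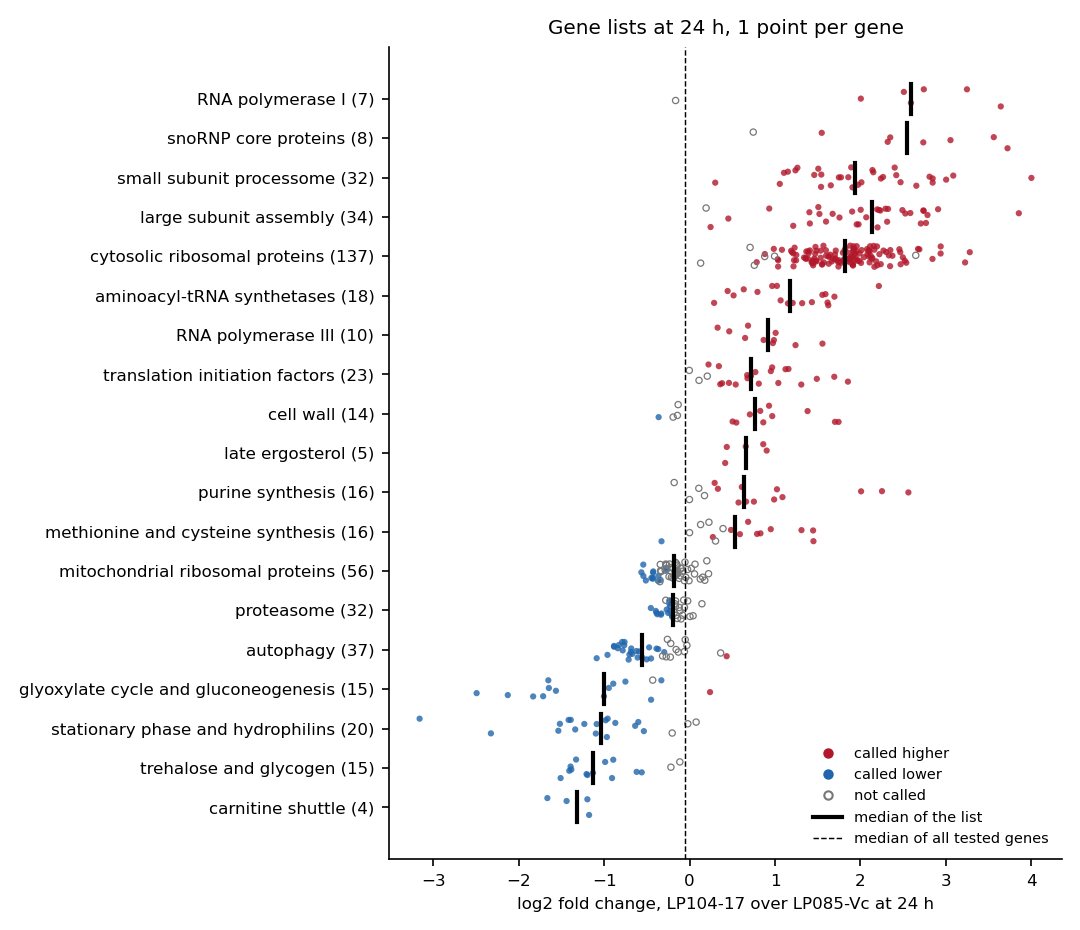
Log2 fold change of LP104-17 over LP085-Vc at 24 h for the genes of 19 lists (x axis), 1 point for each gene, with the list's number of tested genes in brackets; filled points were called higher or lower, open points were not called, the short bar is the list's median and the dashed line the median of all tested genes. The ribosome assembly lists lie to the right, with medians of 1.94 for the small subunit processome and 2.13 for large subunit assembly, and the lists of trehalose and glycogen (−1.13) and the glyoxylate cycle and gluconeogenesis (−1.0) lie to the left.

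The ribosome biogenesis lists together held 91 tested genes, of which 87 were called higher in LP104-17 and 0 lower, beside 25.1% of all tested genes called higher. NSR1, which encodes a nucleolin-like protein of the nucleolus, had 102, 91.7 and 79.2 CPM in LP104-17 and 4.64, 3.98 and 4.35 CPM in LP085-Vc. Every LP104-17 library was far above every LP085-Vc library. Its log2 fold change was 4.39 ± 0.16 (SE, adjusted p = 2.5e-13), a 21.0-fold difference. UTP13, a subunit of the small subunit processome that processes the ribosomal RNA precursor, had 69.3, 65.4 and 57.0 CPM in LP104-17 and 4.17, 3.83 and 3.89 CPM in LP085-Vc. The groups did not overlap, and the log2 fold change was 4.0 ± 0.17 (SE, adjusted p = 7.4e-13). HAS1, an RNA helicase needed for both ribosomal subunits, had 48.4, 54.8 and 54.1 CPM in LP104-17 and 3.71, 3.83 and 3.27 CPM in LP085-Vc. It too was high in all LP104-17 libraries, with a log2 fold change of 3.86 ± 0.13 (SE, adjusted p = 7.3e-14).

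The promoters of these 3 genes are shown because they rose most among the ribosome biogenesis genes and because PAC and RRPE mark this group. Each window runs from 250 bases before to 50 bases after the gene start, on the minus strand, in RefSeq's build R64: chrVII:807607-807906 for NSR1, chrXII:581722-582021 for UTP13 and chrXIII:851542-851841 for HAS1. Capitals mark matches to the PAC core (GCGATGAG) or the RRPE core (AAAAATTT), on either strand.
NSR1: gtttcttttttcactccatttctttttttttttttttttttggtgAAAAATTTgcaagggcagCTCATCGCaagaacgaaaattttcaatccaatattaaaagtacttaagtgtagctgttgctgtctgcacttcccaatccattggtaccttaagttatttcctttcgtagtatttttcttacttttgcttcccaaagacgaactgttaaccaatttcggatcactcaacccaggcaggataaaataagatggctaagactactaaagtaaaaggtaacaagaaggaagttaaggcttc
UTP13: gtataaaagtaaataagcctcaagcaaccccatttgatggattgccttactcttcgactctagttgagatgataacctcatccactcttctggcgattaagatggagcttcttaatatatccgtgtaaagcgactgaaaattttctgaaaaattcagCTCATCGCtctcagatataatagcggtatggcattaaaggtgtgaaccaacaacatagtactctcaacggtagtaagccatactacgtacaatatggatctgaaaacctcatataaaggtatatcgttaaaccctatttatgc
HAS1: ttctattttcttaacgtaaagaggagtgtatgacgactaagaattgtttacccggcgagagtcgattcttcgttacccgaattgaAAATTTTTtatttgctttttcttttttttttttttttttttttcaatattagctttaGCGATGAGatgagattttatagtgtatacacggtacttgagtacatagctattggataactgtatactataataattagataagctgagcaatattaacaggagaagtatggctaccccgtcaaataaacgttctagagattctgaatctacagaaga
The NSR1 window holds an RRPE core that begins 205 bases before the start and a PAC core at 187 bases, and the HAS1 window an RRPE core at 165 and a PAC core at 108 bases. The UTP13 window holds a PAC core at 93 bases and no RRPE core. A match of these letters is a description, not a binding site.

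Of the 91 ribosome biogenesis promoters, 49 held a PAC core (53.8%) and 76 an RRPE core (83.5%). Among all 6001 promoter windows of the reference, 3.93% held a PAC core and 14.1% an RRPE core. Genes called higher lay above that share, with 11.4% for PAC and 30.2% for RRPE, and genes called lower below it, with 1.33% and 8.25%. Within the 91 genes, the 42 with both motifs had a median log2 fold change of 2.36 and the 8 with neither had 1.60, and every gene in both sets was called higher. Ribosomal protein genes, which follow other regulators, held a PAC core in 1 of 137 promoters.

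RNA polymerase I transcribes the large ribosomal RNA precursor. Of its 7 tested subunits outside the shared ones, 6 rose and the median was 2.59. RPA135, the second largest subunit, had 208, 177 and 180 CPM in LP104-17 and 28.7, 27.1 and 28.5 CPM in LP085-Vc, with no overlap. Its log2 fold change was 2.74 ± 0.13 (SE, adjusted p = 4.1e-12). The largest subunit, RPA190, was 2.01 higher on the log2 scale, RPA43 3.25, RPA34 2.59 and RPA12 2.51. RPA14 was the exception at −0.16 (adjusted p = 0.32). It overlaps another annotated gene, YDR157W, and the files do not say whether strand was used in counting, so its value is uncertain. RPC40 and RPC19, subunits shared by RNA polymerases I and III, rose by 2.19 and 2.02. RNA polymerase III, which makes transfer RNA and the smallest ribosomal RNA, rose in all 10 of its own tested subunits, with a smaller median of 0.92 and RPC31 highest at 1.56. RNA polymerase II transcribes messenger RNA. Its subunits RPB3 (0.74) and RPB2 (0.46) rose, RPB7 fell by 0.74 on the log2 scale and 4 of 7 subunits were not called. Its median was 0.12, and over all tested genes 25.1% were called higher and 27.4% lower.

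The proteins that bind small nucleolar RNAs and modify ribosomal RNA rose in 7 of 8 tested cases, with a median of 2.54. NOP56 had 95.4, 99.8 and 93.8 CPM in LP104-17 and 6.80, 7.66 and 9.95 CPM in LP085-Vc, far apart. Its log2 fold change was 3.56 ± 0.18 (SE, adjusted p = 7.3e-12). The methyltransferase NOP1 stood at 3.06 and the pseudouridine synthase CBF5 at 2.35. NOP10, the member not called, had a value of 0.75; exceptions in this and later lists are named after their values were seen. All 32 tested members of the small subunit processome rose, with values from 0.30 to 4.0. Among 34 factors of large subunit assembly 33 rose, including NOG1, a GTPase (2.91), YTM1 (2.74) and NOC2 (2.2). In the list of 8 nucleolar RNA-binding proteins 7 rose, with NSR1 highest at 4.39 and NOP13 (3.13), DBP2 (2.98) and NOP12 (2.49) among the others. These lists kept 0 falling members under every alternative processing.

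Cytosolic ribosomal protein genes rose together, 131 of 137 tested (56 of 56 in the small subunit and 75 of 81 in the large), with a median of 1.83. As a group they took 3.37 ± 0.43% of all counts in LP104-17 and 0.939 ± 0.072% in LP085-Vc (SD, n = 3). RPL15A, a large subunit protein, had 396, 564 and 522 CPM in LP104-17 and 62.7, 48.0 and 41.5 CPM in LP085-Vc. The lowest LP104-17 library was still well above the highest LP085-Vc library, and the log2 fold change was 3.28 ± 0.19 (SE, adjusted p = 3.5e-11). RPS22A of the small subunit had 77.7, 86.7 and 77.0 CPM in LP104-17 and 6.65, 9.73 and 9.33 CPM in LP085-Vc. Its groups were again separate, with a log2 fold change of 3.23 ± 0.16 (SE, adjusted p = 5.2e-12). RPL13A (2.69), RPL5 (2.38) and RPS16B (2.16) followed. RPL15B, the near copy of RPL15A, was not called and had a value of 0.13, with means of 81.5 CPM in LP104-17 and 74.5 CPM in LP085-Vc. Reads of such paralogs can be split between copies by the authors' counting, so values of single ribosomal protein copies are uncertain. Of the other large subunit genes not called, RPL39, RPL43A and RPL22A had means below 1 CPM in both strains.

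Translation factors and the enzymes that charge transfer RNA followed the ribosomal proteins at smaller sizes. YEF3, the fungal elongation factor that releases spent transfer RNA, had 1390, 1149 and 1185 CPM in LP104-17 and 166, 168 and 182 CPM in LP085-Vc. The groups lay far apart, with a log2 fold change of 2.85 ± 0.13 (SE, adjusted p = 2.1e-12). Elongation factors rose in 7 of 9 tested cases, including TEF4 (1.73), TEF1 (1.72) and EFB1 (1.38). TEF1 has a near-identical copy, TEF2, and TEF4 and EFB1 each overlap a small nucleolar RNA gene, so these 3 values are uncertain. The elongation factor gene HYP2 had 0 counts in all 18 libraries, so a count of exactly 0 is not read here as an absent transcript. Initiation factors rose in 20 of 23 cases, led by the eIF3 subunits NIP1 (1.85) and PRT1 (1.70). All 18 cytosolic aminoacyl-tRNA synthetases tested rose, with a median of 1.18 and the phenylalanyl enzyme FRS1 highest at 2.22. Mitochondrial ribosomal proteins did not share this: 0 of 56 rose, 14 fell and the median was −0.18, but across the alternative processings 0 to 3 rose and 5 to 36 fell.

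**Figure D2:**
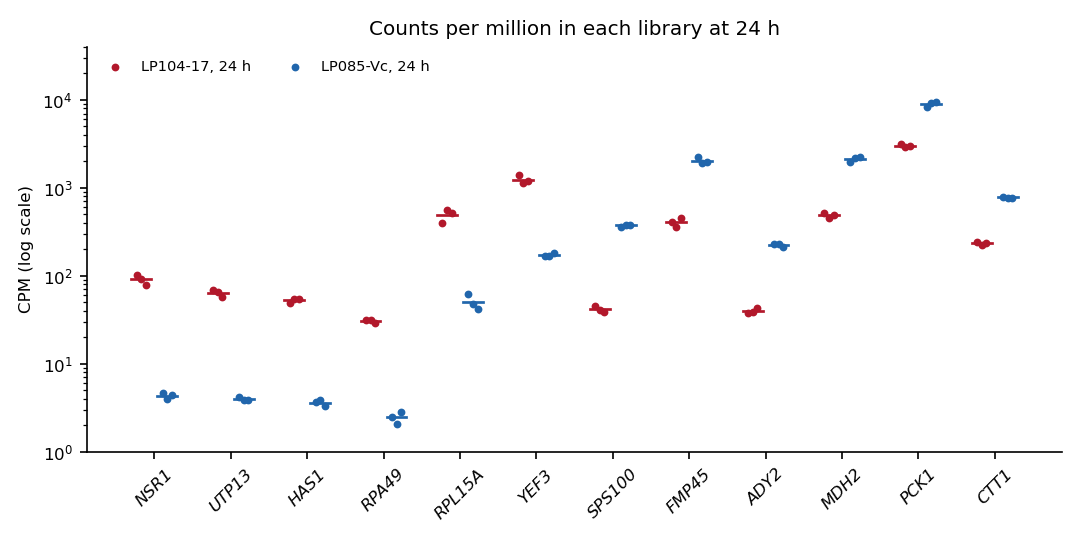
CPM in each library at 24 h on a log scale (y axis) for 12 named genes (x axis), LP104-17 left of LP085-Vc, 1 point for each library with a line at the group mean. NSR1, UTP13, HAS1, RPA49, RPL15A and YEF3 were higher in all 3 LP104-17 libraries, and SPS100, FMP45, ADY2, MDH2, PCK1 and CTT1 were lower in all 3, with no overlap for any of the 12. Over all 6131 tested genes, 1769 were higher and 2043 lower without overlap.

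Many genes of nucleotide synthesis were higher in LP104-17. GUA1, the GMP synthase, had 176, 168 and 174 CPM in LP104-17 and 29.2, 30.1 and 28.5 CPM in LP085-Vc. All LP104-17 values were far above those of LP085-Vc, and the log2 fold change was 2.56 ± 0.10 (SE, adjusted p = 5.5e-13). Its neighbours in the GTP branch, the IMP dehydrogenases IMD4 (2.25, overlapping a small nucleolar RNA gene) and IMD3 (2.01), also rose. In the purine list 12 of 16 genes rose and 0 fell, with a median of 0.64, and at 6 h 10 were already higher. URA7, the CTP synthase, had 48.9, 56.2 and 57.8 CPM in LP104-17 and 5.10, 5.16 and 7.15 CPM in LP085-Vc. The strains did not overlap and the log2 fold change was 3.22 ± 0.15 (SE, adjusted p = 2.1e-12). URA5 (1.32) and URA1 (1.20) of the same pathway rose less, and the second CTP synthase gene, URA8, fell by 0.24 on the log2 scale, a call that was lost with total count scaling.

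Transcripts for amino acid synthesis rose unevenly. Of the histidine and aromatic list, 12 of 17 genes rose and 0 fell, with ARO4, which opens the aromatic branch, at 2.31, ARO2 at 1.20 and TRP2 at 1.07. In the branched-chain list 7 of 12 rose and 3 fell. Those that rose include the isopropylmalate synthase LEU9 (1.79) and the threonine deaminase ILV1 (1.44). LEU4 (−0.34), BAT2 (−0.26) and LEU1 fell, the first 2 by little. With total count scaling only 1 gene of the list was called lower. LEU1, isopropylmalate isomerase, had 116, 108 and 105 CPM in LP104-17 and 248, 247 and 251 CPM in LP085-Vc, a fall of 1.18 on the log2 scale with no overlap. The methionine and cysteine list rose in 10 of 16 cases and the arginine list in 5 of 9.

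Genes of the glyoxylate cycle and gluconeogenesis, which turn acetate into sugar, fell in 13 of 15 tested cases, beside 27.4% of all tested genes called lower. Together they took 2.07 ± 0.01% of counts in LP104-17 and 4.60 ± 0.16% in LP085-Vc (SD, n = 3). MDH2, the cytosolic malate dehydrogenase of gluconeogenesis, had 519, 450 and 491 CPM in LP104-17 and 1978, 2158 and 2250 CPM in LP085-Vc. All 3 LP104-17 libraries were low, with no overlap and a log2 fold change of −2.13 ± 0.08 (SE, adjusted p = 3.8e-13). ADY2, the acetate permease, had 37.3, 38.4 and 42.9 CPM in LP104-17 and 228, 228 and 213 CPM in LP085-Vc. The LP104-17 libraries were again all lower, with a log2 fold change of −2.49 ± 0.17 (SE, adjusted p = 4.3e-10). SFC1, the succinate-fumarate carrier of mitochondria, stood at −1.83, the peroxisomal citrate synthase CIT2 at −1.65 and the gluconeogenic carboxykinase PCK1 at −1.57. The exceptions were ADH2, the alcohol dehydrogenase that oxidises ethanol, which rose by 0.24 but was not called after the coding length correction, and CAT8, the activator of this group, which was not called at −0.43.

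The promoters of ADY2 and MDH2 are shown as those with the largest changes in this list. They lie on the minus strand at chrIII:133075-133374 for ADY2 and chrXV:82871-83170 for MDH2 in RefSeq's build R64. The elements searched, on both strands, were STRE (AGGGG), in capitals, and the carbon source response element CSRE (CC, then 6 bases of any kind, then CCG), which neither window holds.
ADY2: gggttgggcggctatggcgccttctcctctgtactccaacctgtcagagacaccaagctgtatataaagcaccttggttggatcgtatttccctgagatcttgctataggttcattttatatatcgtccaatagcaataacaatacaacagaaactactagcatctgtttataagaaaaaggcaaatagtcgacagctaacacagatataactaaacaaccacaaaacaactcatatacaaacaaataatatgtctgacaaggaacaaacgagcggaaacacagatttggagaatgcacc
MDH2: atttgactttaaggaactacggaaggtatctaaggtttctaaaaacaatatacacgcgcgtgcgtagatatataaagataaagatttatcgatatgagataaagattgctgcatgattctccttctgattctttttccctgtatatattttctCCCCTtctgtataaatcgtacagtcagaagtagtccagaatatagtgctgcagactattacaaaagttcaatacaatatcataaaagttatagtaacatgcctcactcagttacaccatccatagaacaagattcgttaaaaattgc
MDH2 holds an STRE match that begins 97 bases before the start, and ADY2 holds none. In the list, CSRE matched in 1 of 15 promoters (6.67%) and STRE in 4 of 15 (26.7%), against 10.2% and 21.6% of all promoters. These letters missing from a window say nothing of the factor that binds such elements.

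Other genes of non-fermentative carbon use moved in parts, and over all tested genes 25.1% were called higher and 27.4% lower. The carnitine shuttle, which carries acetyl groups into mitochondria, fell in 4 of 4 genes: the transferases CAT2 (−1.67), YAT1 (−1.20) and YAT2 (−1.18) and the carrier CRC1 (−1.44). Of 10 genes of acetate and acetyl-CoA supply 5 fell, 1 rose and 4 were not called. The number that rose ran from 0 to 2 across the alternative processings. The aldehyde dehydrogenases ALD3 (−1.28), ALD2 (−0.90) and ALD4 (−0.85) fell, as did the CoA transferase ACH1 (−0.76), and the acetyl-CoA synthetase ACS2 rose by 0.25. Peroxisomal beta-oxidation fell in 12 of 16 cases and rose in 2, and the falls ran from 7 to 14 across the alternative processings, with a median of −0.42 and PXA1, a fatty acyl transporter subunit, lowest at −1.04. In contrast, the respiratory chain as listed was mostly not called, in 31 of 35 genes, with 3 higher, a number that became 9 with total count scaling. The tricarboxylic acid cycle had 4 of 18 genes higher, 4 lower and 10 not called, near the shares over all tested genes, with a median of −0.09. Its split was 6 higher and 2 lower with total count scaling and 5 higher and 8 lower after the coding length correction. The isocitrate dehydrogenase subunits IDH1 (1.01) and IDH2 (0.98) rose, while the citrate and methylcitrate synthase CIT3 fell by 0.79 on the log2 scale. Values in this list ran from −0.79 to 1.91, so IDH1 was not its highest member. The mitochondrial NADH dehydrogenases that face the cytosol moved apart. NDE1 had 1389, 1288 and 1272 CPM in LP104-17 and 577, 645 and 614 CPM in LP085-Vc (log2 fold change 1.11). NDE2 had 248, 257 and 258 CPM in LP104-17 and 577, 632 and 631 CPM in LP085-Vc (log2 fold change −1.27). Neither gene's libraries overlapped between strains.

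The parts of glycolysis differed. Of the lower part of the pathway 5 of 10 genes fell and 0 rose, with ENO1 at −1.40, PYK2, the minor pyruvate kinase, at −1.28 and TDH1 at −1.01. The main pyruvate kinase CDC19 (0.02), the other enolase ENO2 (−0.05) and TDH2 (0.18) were not called. Of 9 genes of upper glycolysis and the hexose kinases 3 rose and 1 fell, the glucokinase GLK1 at −0.61. Over all tested genes 25.1% were called higher and 27.4% lower, and this list's median was −0.11. HXK2, the hexokinase that also takes part in glucose repression, had 168, 155 and 152 CPM in LP104-17 and 50.4, 55.1 and 51.2 CPM in LP085-Vc. It was high in all LP104-17 libraries, at 1.60 ± 0.10 (SE, adjusted p = 1.4e-10). HXT5, a hexose transporter made by slow-growing cells, had 1073, 991 and 1054 CPM in LP104-17 and 3445, 3126 and 3496 CPM in LP085-Vc. Its libraries were all lower in LP104-17, at −1.69 ± 0.10 (SE, adjusted p = 4.4e-11). The high-affinity transporter HXT6 was higher, with 280, 317 and 263 CPM in LP104-17 and 100, 109 and 109 CPM in LP085-Vc, and a log2 fold change of 1.43. HXT6 has a near-identical copy, HXT7, called at 0.43, so the split between them is uncertain. Of 11 regulators of glucose sensing 4 fell and 2 rose, beside 27.4% and 25.1% of all tested genes, with a median of −0.31. The kinase gene of glucose derepression SNF1 (−0.42), the sensor SNF3 (−0.68) and the repressors MIG2 (−0.77) and MIG1 (−0.53) fell, and STD1 (0.74) and MTH1 (0.28), which act in glucose signalling, rose.

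Genes of stationary phase and of storage carbohydrates fell, and none of either list rose. SPS100, a spore wall protein gene that is also expressed in starved cells, had 45.9, 40.9 and 38.8 CPM in LP104-17 and 362, 381 and 381 CPM in LP085-Vc. The strains were far apart, with a log2 fold change of −3.16 ± 0.17 (SE, adjusted p = 1.1e-11). A stable unannotated transcript, SUT169, is listed antisense to it, and without strand the sources of these reads cannot be told apart. FMP45, a membrane protein gene of stationary cells, had 406, 357 and 451 CPM in LP104-17 and 2224, 1902 and 1961 CPM in LP085-Vc. All LP104-17 values were low, at −2.33 ± 0.10 (SE, adjusted p = 1.2e-12). Of 20 stationary phase genes 17 fell, with a median of −1.04, and the list took 1.73 ± 0.11% of counts in LP104-17 and 2.92 ± 0.11% in LP085-Vc (SD, n = 3). In trehalose and glycogen metabolism 13 of 15 genes fell, with a median of −1.13: the branching enzyme GLC3 stood at −1.41, phosphoglucomutase PGM2 at −1.39 and the trehalose-6-phosphate synthase TPS1 at −1.33. CTT1, the cytosolic catalase, fell by 1.74 on the log2 scale. Of 20 oxidant defence genes 10 fell, 7 with total count scaling, and the median was −0.29. Heat shock chaperones were mixed, 4 higher and 10 lower of 24 (6 higher and 6 lower with total count scaling); HSP42 stood at −0.89 and HSP26 at −0.73, and the HSP70 exchange factor SSE1 at 0.69. Their median was −0.12, and 0.03 with total count scaling.

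The SPS100 and FMP45 promoters are shown as those of the stress lists with the largest falls. They lie on the minus strand at chrVIII:379150-379449 for SPS100 and chrIV:61752-62051 for FMP45 in RefSeq's build R64, with STRE (AGGGG or its complement) in capitals.
SPS100: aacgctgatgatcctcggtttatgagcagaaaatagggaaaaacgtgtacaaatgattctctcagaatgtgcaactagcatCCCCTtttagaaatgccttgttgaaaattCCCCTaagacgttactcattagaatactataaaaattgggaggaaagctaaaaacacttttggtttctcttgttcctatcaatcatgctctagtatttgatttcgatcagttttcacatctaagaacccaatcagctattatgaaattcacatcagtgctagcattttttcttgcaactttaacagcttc
FMP45: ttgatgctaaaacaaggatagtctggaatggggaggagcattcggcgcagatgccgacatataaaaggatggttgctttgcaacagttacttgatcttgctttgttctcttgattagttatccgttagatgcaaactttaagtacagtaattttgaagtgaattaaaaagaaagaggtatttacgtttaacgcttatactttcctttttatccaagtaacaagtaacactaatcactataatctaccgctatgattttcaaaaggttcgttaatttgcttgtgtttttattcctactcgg
SPS100 holds STRE matches that begin 169 and 140 bases before the start, and FMP45 holds none, although both fell more than 4-fold. Of 15 trehalose and glycogen promoters 9 held an STRE (60.0%), and of 20 stationary phase promoters 8 (40%), against 21.6% of all promoters. Among genes called lower 36.0% held one, among genes not called 19.0% and among genes called higher 11.6%. The share was 52.6% in the 152 genes with a window that were at least 2-fold lower. Within the stress lists the 17 genes with an STRE had a median log2 fold change of −1.20 and 16 of them fell, and the 18 without had −0.95 and 14 fell.

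**Figure D3:**
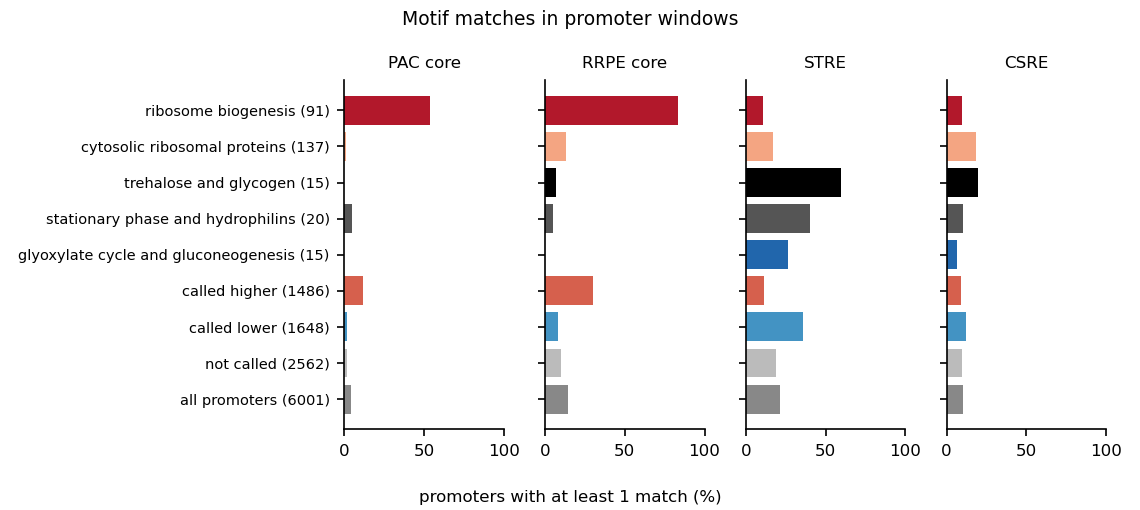
Share of promoter windows (x axis, %) with at least 1 match to the PAC core, the RRPE core, STRE or CSRE on either strand, for gene lists and for genes by their call at 24 h (y axis, number of windows in brackets). Ribosome biogenesis promoters stand out for PAC (53.8%) and RRPE (83.5%), and trehalose and glycogen promoters for STRE (60.0%), against 3.93%, 14.1% and 21.6% of all promoters.

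Transcripts for protein breakdown in the vacuole fell, and those of the proteasome moved less. Of 37 autophagy genes 25 fell and 1 rose, with a median of −0.55 and ATG42, a vacuolar carboxypeptidase, lowest at −1.09. Vacuolar hydrolases fell in 8 of 9 cases. PRB1, the vacuolar protease B, had 4782, 4019 and 4367 CPM in LP104-17 and 8419, 8502 and 8950 CPM in LP085-Vc. Its libraries did not overlap, at −0.97 ± 0.11 (SE, adjusted p = 2.2e-07). Proteasome subunits stayed close to the median of all genes, at −0.19, and 15 of 32 fell; that number ran from 3 to 27 across the alternative processings. Peroxin genes, which build peroxisomes, fell in 14 of 29 cases and rose in 3, with PEX21 the largest rise at 1.52.

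The sterol pathway, from which diosgenin is drawn, differed by less than 2-fold in each of its 24 tested genes. Of the mevalonate pathway 3 of 9 genes rose: the isomerase IDI1 (0.53), the decarboxylase MVD1 (0.45) and the HMG-CoA synthase ERG13 (0.41). That is near the 25.1% of all tested genes called higher, and the list's median was 0.01. HMG2, an isoform of HMG-CoA reductase, fell by 0.67 on the log2 scale, with 124, 122 and 115 CPM in LP104-17 and 187, 194 and 195 CPM in LP085-Vc. HMG1, the other isoform, was not called, with 131, 94.4 and 107 CPM in LP104-17 and 126, 114 and 143 CPM in LP085-Vc, which overlap. ERG10, ERG12, ERG8 and ERG20 were not called, with values from −0.08 to 0.15. From squalene to the demethylated sterol, 6 of 10 genes rose, including the lanosterol demethylase ERG11 (0.72), the lanosterol synthase ERG7 (0.59), the dehydrogenase ERG26 (0.71) and the methyl oxidase ERG25 (0.32). The others that rose were ERG29 (0.55) and ERG27 (0.29). ERG9, the squalene synthase, fell by 0.49 on the log2 scale, and ERG24 (−0.01) and ERG28 (0.26) were not called. ERG1, which opens the oxidised branch of squalene, was not called at −0.08, with 810, 754 and 745 CPM in LP104-17 and 810, 834 and 794 CPM in LP085-Vc. In the last steps to ergosterol all 5 genes rose. The desaturase ERG3 had 5081, 5036 and 4954 CPM in LP104-17 and 3123, 3209 and 3221 CPM in LP085-Vc, without overlap, at 0.66 ± 0.07 (SE, adjusted p = 1.1e-07). The sterol methyltransferase ERG6 stood at 0.90, ERG4 at 0.86, ERG5 at 0.44 and ERG2 at 0.42.

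Single genes around the sterol pathway differed by more than 2-fold, while others near it were not called. CYB5, cytochrome b5, an electron donor of sterol and lipid oxidation, had 84.1, 92.3 and 90.6 CPM in LP104-17 and 33.8, 39.4 and 42.3 CPM in LP085-Vc. It was higher in every LP104-17 library, at 1.21 ± 0.15 (SE, adjusted p = 1.1e-06). NCP1, the P450 reductase that a plant or yeast P450 can draw on, was not called at 0.29 (adjusted p = 0.07). YEH1, a steryl ester hydrolase, had 135, 127 and 117 CPM in LP104-17 and 37.1, 41.1 and 36.2 CPM in LP085-Vc, apart in every library and 1.73 ± 0.10 higher (SE, adjusted p = 4.1e-11). The acyltransferases that make steryl esters, ARE1 (−0.23) and ARE2 (−0.18), were not called. ROX1, a repressor of hypoxic genes, rose by 1.11 and the repressor MOT3 fell by 0.90 on the log2 scale. Of 10 genes of sterol uptake and the anaerobic cell wall 6 rose, with TIR4 at 1.24, TIR2 at 1.13 and DAN1 at 0.88. The fatty acid elongases ELO2 (1.92) and ELO3 (1.84), which make very long chains, rose, while the desaturase OLE1 fell by 0.44 on the log2 scale. Among multidrug transport genes, 6 of 12 fell, 3 with total count scaling, and 2 rose: SNQ2 stood at −1.04, PDR15 at −0.79 and PDR10 at −0.73, and PDR12 at 0.81.

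Cell wall genes rose in 10 of 14 cases, with a median of 0.77. GAS1, a glucan elongase, had 898, 847 and 823 CPM in LP104-17 and 242, 271 and 276 CPM in LP085-Vc. Its libraries were all higher in LP104-17, at 1.70 ± 0.10 (SE, adjusted p = 2.1e-11). The G1 cyclin CLN2 had 124, 126 and 131 CPM in LP104-17 and 39.7, 43.6 and 42.8 CPM in LP085-Vc, again without overlap and 1.60 ± 0.10 higher (SE, adjusted p = 1.0e-10). PCL1 (1.04) and PCL2 (0.96), cyclins of the Pho85 kinase, and FAR1 (1.10), an inhibitor of G1 cyclins, also rose. Of 18 cell cycle genes 8 rose and 3 fell, among them CLB2 (−0.37) and SIC1 (−0.36), and those 3 falls were not called with total count scaling. IME1, the master activator of meiosis, had 15.0, 12.5 and 14.6 CPM in LP104-17 and 65.5, 61.3 and 66.6 CPM in LP085-Vc, low in every LP104-17 library at −2.20 ± 0.12 (SE, adjusted p = 2.0e-11). RME1, a repressor of IME1, fell as well, with 113, 116 and 103 CPM in LP104-17 and 280, 309 and 301 CPM in LP085-Vc.

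Galactose genes took much of both strains' counts in a medium labelled with glucose. The list of 6 tested genes held 7.96 ± 0.21% of counts in LP104-17 and 7.75 ± 0.21% in LP085-Vc (SD, n = 3), and the enzymes and transporter GAL1, GAL10 and GAL2 were not called, at −0.01, −0.00 and −0.13. Of the 6 tested genes 3 fell and 0 rose, with a median of −0.24, beside 27.4% of all tested genes called lower. With total count scaling 2 fell. Among the falls, GAL7 fell by 0.53 and GAL3 by 0.36 on the log2 scale. GAL80, the repressor of this regulon, was too low to test, with 1 count over the 3 LP104-17 libraries and 5 over the 3 LP085-Vc libraries at 24 h. Its highest count in any of the 18 libraries was 12.

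Several genes used as selection markers separated the strains almost completely. URA3 had 0 counts in all LP104-17 libraries at 24 h and 419, 419 and 395 CPM in LP085-Vc, at least 925-fold lower against a floor of 3 counts in each library. LEU2 had 14.5, 11.9 and 14.5 CPM in LP104-17 and 1 count in all LP085-Vc libraries, a ratio of 267 with a 95% counting interval of 47.6 to 10595. TRP1 had 79.2, 100.1 and 95.7 CPM in LP104-17 and 2 counts in LP085-Vc, a ratio of 907 with an interval of 251 to 7498. Intervals and floors cover counting error only. HIS3 was not called, with 317, 314 and 325 CPM in LP104-17 and 328, 325 and 330 CPM in LP085-Vc. LYS2 was called higher, at a low level, with 13, 15.1 and 9.84 CPM in LP104-17 and 3.09, 6.34 and 1.24 CPM in LP085-Vc (log2 fold change 1.81). These marker genes differ with the strain, so their part in the other differences cannot be told apart from that of the strain. As a check of the background's mating type, the alpha-factor gene MF(ALPHA)1 had 1099, 1066 and 978 CPM in LP104-17 and 259, 312 and 278 CPM in LP085-Vc. Over the alpha-cell list of 4 tested genes, 1 was higher, 1 lower and 2 not called, with a median of −0.12. The a-cell genes MFA1, MFA2, AGA2 and ASG7 each stayed below 8 CPM in every library of both strains. The whole a-cell list, which also holds STE2, STE6 and BAR1, summed to 68.5 ± 2.8 CPM in LP104-17 and 90.1 ± 9.8 CPM in LP085-Vc (SD, n = 3). Over the whole a-cell list, 0 of 7 genes rose and STE6 alone fell, at −0.60.

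At 6 h the same strains differed in 708 of 6131 genes (11.5%), and in 516 genes they were called in the same direction at both times, in 60 in opposite directions. The difference at 24 h was tested against that at 6 h as an interaction, which called 2032 genes (33.1%), 1092 upward and 940 downward. Of the 137 ribosomal protein genes 17 rose at 6 h, with a median of 0.26, and the interaction was called upward in 129. NSR1 was 1.13 higher at 6 h and 4.39 at 24 h (interaction 3.26 ± 0.21, adjusted p = 1.8e-09). Its level in LP104-17 was 57.7 ± 4.4 CPM at 6 h and 91.1 ± 11.7 CPM at 24 h, and in LP085-Vc 26.3 ± 1.7 CPM at 6 h and 4.32 ± 0.33 CPM at 24 h (SD, n = 3). The wider gap at 24 h came with a low level in LP085-Vc. RPL15A had 1227 ± 289 CPM at 6 h and 494 ± 87 CPM at 24 h in LP104-17, and 1025 ± 126 CPM at 6 h and 50.8 ± 10.9 CPM at 24 h in LP085-Vc. The glyoxylate and gluconeogenesis list had a median of 0.06 at 6 h, and the interaction was called downward in 11 of 15 genes. PCK1 was low at 6 h in both strains, with 17.8 ± 2.7 CPM in LP104-17 and 15.5 ± 0.9 CPM in LP085-Vc. Trehalose and glycogen genes were already lower at 6 h in 8 of 15 cases, with a median of −0.48, and the interaction was called downward in 10.

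**Figure D4:**
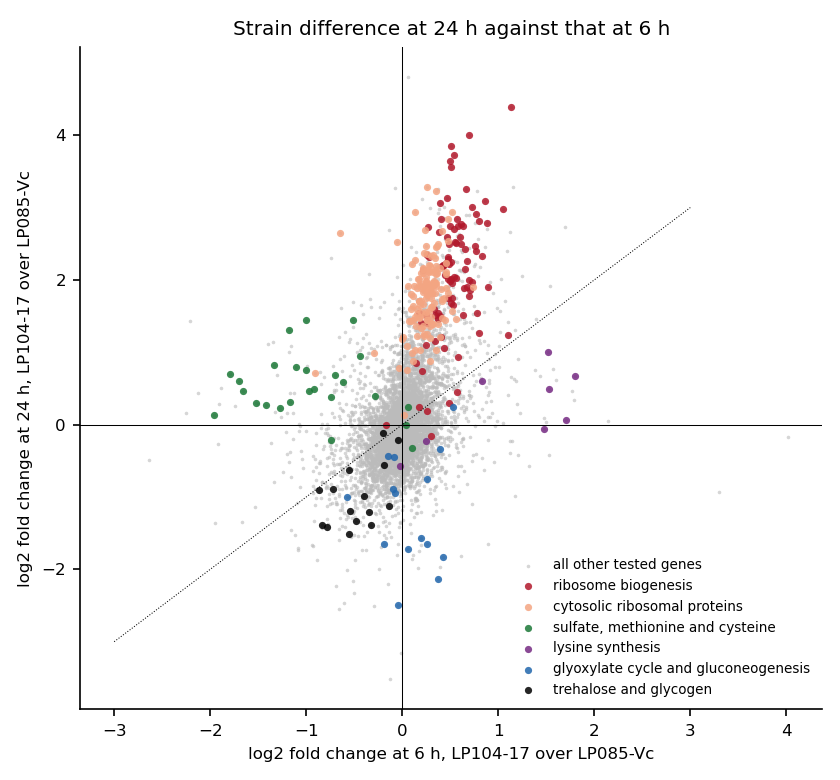
Log2 fold change of LP104-17 over LP085-Vc at 24 h (y axis) against that at 6 h (x axis), 1 point for each tested gene, with 6 sets of genes coloured and TRP1, LEU2 and URA3 left out; the dotted line marks an equal difference at both times. Ribosomal protein genes lie above the line (medians 0.26 at 6 h and 1.83 at 24 h), and the sulfate, methionine and cysteine genes lie left of 0 at 6 h and right of it at 24 h by their medians.

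Some amino acid and transport genes were ordered differently at the 2 times. Of 16 methionine and cysteine genes 13 were lower in LP104-17 at 6 h (median −0.96) and 10 higher at 24 h (median 0.54), and 13 interactions were called upward. Sulfate assimilation showed the same, 8 of 9 lower at 6 h and 6 higher at 24 h. MET17, which makes homocysteine from sulfide, had 882 ± 175 CPM in LP104-17 and 1992 ± 242 CPM in LP085-Vc at 6 h. At 24 h it had 739 ± 39 CPM in LP104-17 and 298 ± 17 CPM in LP085-Vc (SD, n = 3; interaction 2.49 ± 0.19, adjusted p = 8.4e-09). MET17 overlaps the annotated gene YLR302C, which makes its level uncertain. The S-adenosylmethionine synthetase SAM1 moved alike, at −1.0 at 6 h and 1.45 at 24 h. HXT6 was 2.21 lower on the log2 scale at 6 h and 1.43 higher at 24 h (interaction 3.65 ± 0.21, adjusted p = 5.1e-10). The siderophore transporter ARN1 (−0.56 at 6 h, 1.14 at 24 h) and the cell wall mannoprotein FIT2 (−1.30 at 6 h, 0.69 at 24 h), both of iron uptake, also changed sign. In lysine synthesis 6 of 8 genes were higher and 0 lower at 6 h, with a median of 1.5. At 24 h 4 were higher, LYS5 (−0.57) and LYS14 (−0.23) were lower and the median was 0.28, and 7 interactions were called downward. With total count scaling only 1 lysine gene was called lower at 24 h.

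**Figure D5:**
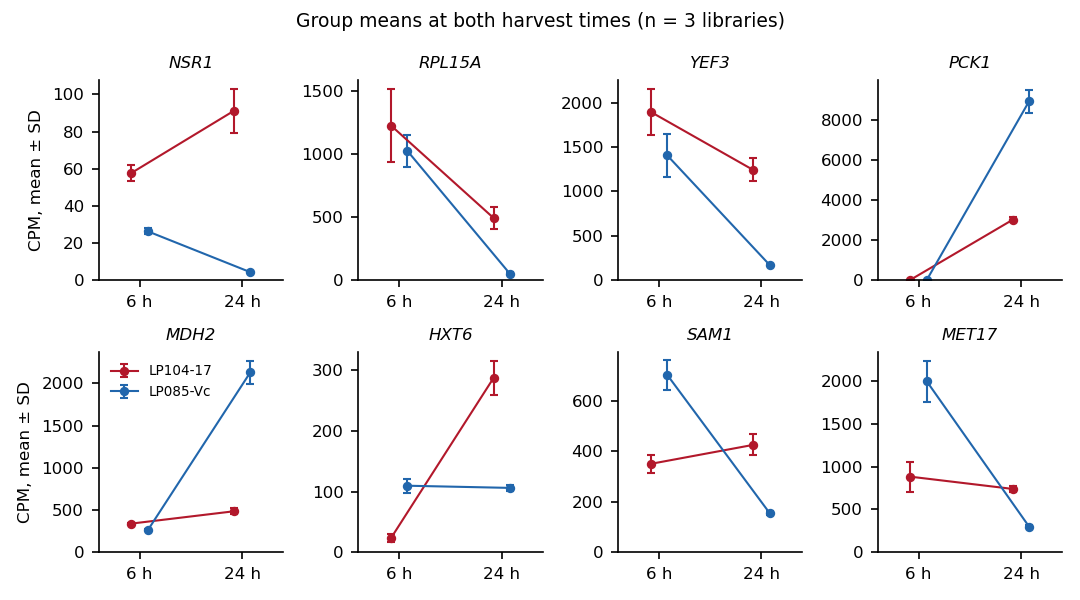
Mean CPM (y axis, linear, with SD over 3 libraries) at 6 h and 24 h (x axis) of 8 genes in LP104-17 and LP085-Vc. NSR1, RPL15A and YEF3 were higher in LP104-17 at 24 h, PCK1 and MDH2 were lower, and the lines of HXT6, SAM1 and MET17 cross between the times.

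LP118 at 24 h gives a further point of comparison, with 4208 of 6131 genes (68.6%) called between LP104-17 and LP118. For several of the named genes LP104-17 lay between the other strains, and how common that order was over all genes is not given here. NSR1 averaged 91.1 ± 11.7 CPM in LP104-17, 513 ± 35 CPM in LP118 and 4.32 ± 0.33 CPM in LP085-Vc, and the log2 difference of LP104-17 from LP118 was −2.49 ± 0.12 (SE, adjusted p = 6.4e-13). MDH2 averaged 487 ± 35 CPM in LP104-17, 102 ± 6 CPM in LP118 and 2129 ± 139 CPM in LP085-Vc, with LP104-17 2.26 ± 0.08 above LP118 (SE, adjusted p = 1.6e-14). PCK1 averaged 3015 ± 111 CPM in LP104-17, 53.5 ± 2.7 CPM in LP118 and 8924 ± 576 CPM in LP085-Vc (SD, n = 3). HXT6 was out of that order, at 286 ± 28 CPM in LP104-17, 36.1 ± 7.2 CPM in LP118 and 106 ± 5 CPM in LP085-Vc. Comparisons of LP104-17 with LP118 and with LP085-Vc share the LP104-17 libraries, so their values are given side by side and not related to each other.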

How the data were processed

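Per the labels, RNA came from a Trizol extraction followed by RNeasy columns with on-column DNase I. The submitters' processing notes name the aligner Bowtie2 2.2.5 and the build R64. How reads were counted, with which annotation and whether by strand is not given in the sources used here. The authors deposited raw counts per gene, which were used for every test, and FPKM values, used only in alternatives as log2(FPKM + 1) and log2(FPKM + 0.1). Of 6600 gene identifiers, 5917 (89.7%) matched RefSeq's R64 annotation.

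A quasi-likelihood model in edgeR 4.0.16 (R 4.3.3) covered all 18 libraries, with a mean for each strain and time and 12 residual degrees of freedom. TMM factors ran from 0.914 to 1.11. filterByExpr (minimum count 10, minimum total 15) kept 6131 genes and removed 469. Tests were two-sided with Benjamini-Hochberg adjustment over all tested genes, and fold changes used a prior count of 0.125. The biological coefficient of variation was 11.2%. No set of libraries was alike within sampling noise.

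Named genes included the 15 largest rises and 15 largest falls among called genes with at least 10 CPM and no overlap between the strains' libraries. For those genes the lack of overlap was a condition of choice, not a result. Up to 4 called members of each list by adjusted p and all members of the marker, sterol and RNA polymerase I lists were also named. Exceptions were named where said to be so. Members, lists and motifs were chosen with earlier results of these data known. Alternatives were DESeq2 1.42.0, limma 3.58.1 on log2 FPKM, other scalings, filters and sets of libraries, a coding length correction, a replicate block and leaving out each library. The scripts were tested on simulated data.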

Additional observations from a re-analysis of the deposited data

Results flagged for a closer look

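The difference between LP104-17 and LP085-Vc was not the same at 24 h as at 6 h in 2032 of the 6131 genes, by the interaction in edgeR's quasi-likelihood model at an adjusted p below 0.05. The genes given next have the largest called interactions among the 15 largest rises and the 15 largest falls at 24 h. They were thus picked on 24 h values that enter the interaction, and not from all genes it called. Among the rises, all of ribosome production, the 24 h minus 6 h log2 difference was 3.35 for HAS1, 3.30 for UTP13, 3.26 for NSR1, 3.19 for NOP58 and 3.15 for RPA49. Among the largest falls the same difference was −3.15 for SPS100, −2.50 for MDH2, −2.45 for ADY2, −2.25 for SFC1 and −2.21 for PHM7, a gene of unsettled function. The time of harvest and the growth stage of each strain at that time cannot be told apart here. No cell density at harvest was used.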

How the results depend on the processing

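The count of genes called at 24 h stayed within 1.5 times of 3222 under all 17 alternatives, from 2881 with a library left out to 3735 after a coding length trend was removed. In no alternative was a gene called in the opposite direction. Leaving out each library in turn gave 2881 to 2987 called genes, 1416 to 1452 higher and 1446 to 1535 lower, and 1758 to 1919 interactions. The number of genes called lower, 1681, depended on the scaling: it was 1073 with total counts only, 1052 with limma on log2(FPKM + 1) and 1038 with limma on log2(FPKM + 0.1). None of these fits used TMM factors. In the same order, the genes called higher numbered 1942, 1897 and 1901, and the median of all genes lay at 0.09 in each. The cause was not tested. DESeq2 called 3257 genes. Among results of single genes 272 of 293 kept their call in every alternative and 0 changed sign while called, and 78 of 130 list counts stayed within 1.5 times; the proteasome and mitochondrial ribosomal protein counts were the least steady of those named. With motifs searched only before the gene start, 7 shares moved beyond their 95% binomial confidence interval, all of STRE or CSRE in large sets of genes. Replicates with the same number did not deviate together (correlations −0.26, 0.18 and 0.0004), and a fit with the replicate number as a block called 3226 genes. Genes with few counts, such as GAL80, could not be tested at this depth.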

Other observations

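Lists of nitrogen, phosphate and iron genes held rises and falls, and few thiamine genes were called, beside 52.6% of all tested genes called. Of 19 genes under nitrogen catabolite repression 7 fell and 2 rose in LP104-17, and 5 fell and 3 rose with total count scaling. PUT1, the proline oxidase, had 387, 373 and 377 CPM in LP104-17 and 956, 948 and 951 CPM in LP085-Vc, lower in every LP104-17 library at −1.33 ± 0.08 (SE, adjusted p = 4.8e-11). The proline permease PUT4 stood at −0.68, and DAL7, the malate synthase of allantoin use, at 1.46. Of 15 phosphate starvation genes 4 rose and 5 fell, among them the sodium-coupled phosphate transporter PHO89 at −0.93. PHO3, an acid phosphatase repressed by thiamine, had 50.7, 49.8 and 48.4 CPM in LP104-17 and 14.2, 12.5 and 14.3 CPM in LP085-Vc, with no overlap and a log2 fold change of 1.86 ± 0.13 (SE, adjusted p = 6.3e-10). THI4, a thiamine synthesis gene, went the other way at −0.90, and 12 of 16 thiamine genes were not called. The iron regulon split into 5 higher, 5 lower (2 with total count scaling) and 11 not called, led by ARN1 at 1.14.

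Genes of phospholipid and heme synthesis, protein folding and histones each differed by less than 2-fold. Of 15 phospholipid genes 7 rose and 1 fell: INO1, which makes inositol phosphate, had 8573, 8487 and 8445 CPM in LP104-17 and 6308, 6263 and 6356 CPM in LP085-Vc (log2 fold change 0.43), and the inositol transporter ITR1 stood at 0.54. In heme synthesis 4 of 8 genes rose, with the oxygen-dependent HEM13 at 0.89, and the ferrochelatase HEM15 fell by 0.58 on the log2 scale. Of 14 endoplasmic reticulum folding genes 4 were higher and 4 lower (5 higher and 2 lower with total count scaling). That is near the 25.1% of all tested genes called higher and the 27.4% called lower, and the list's median was 0.002. The ubiquitin ligase HRD1 stood at −0.88 and the cochaperone JEM1 at 0.60. Of 10 histone genes 3 rose, near the 25.1% of all tested genes called higher, and the median was 0.09. HTB2 stood at 0.50, and the variant HTZ1 fell by 0.56 on the log2 scale.

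Some of the largest differences lay outside the lists. PHM7 had 167, 167 and 183 CPM in LP104-17 and 1013, 924 and 1005 CPM in LP085-Vc, far lower in each LP104-17 library at −2.51 ± 0.13 (SE, adjusted p = 1.2e-11). ENA1, a sodium pump gene with near copies, had 17.4, 11.4 and 18.1 CPM in LP104-17 and 63.1, 41.4 and 59.4 CPM in LP085-Vc, at −1.81. NIP7, a ribosome assembly factor that no list here holds, rose by 3.25 on the log2 scale.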
